A study of Rattus norvegicus with 20 samples.

Results

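Bulk RNA-seq of rat mesenchymal stromal cells (MSCs) kept on a stiff surface was compared between 1 and 3 weeks of culture. The comparison takes the 3 libraries of 3w100 (passage 3, 100 kPa) against the 3 libraries of 1w100 (passage 1, 100 kPa), which are 6 of the 20 libraries of the series and were chosen by the surface and passage in their labels. All cells came from the bone marrow of female Wistar rats, with a single rat for each batch, for which the labels give no genetic change, and grew on silicone of fixed stiffness coated with gelatin. Both groups had the same α-MEM with 10% fetal bovine serum and were passaged weekly with trypsin, so 3w100 differs from 1w100 by time and by the number of detachments together, and the contributions of these cannot be told apart. Per the study's methods, marrow was plated straight onto the surface, and cells carrying CD54 and CD90 were selected with magnetic beads after a first expansion passage, to remove blood cells. Whether the passage 1 cells of 1w100 were taken before or after this selection is not clear from the labels and methods, so selection may also differ between the groups and cannot be told apart from time. There is no uncultured sample among those analysed.

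MSCs are stromal cells of the marrow that can give rise to bone, fat and cartilage cells and that support blood formation. On stiff surfaces they can become myofibroblasts, contractile cells that build stress fibers with α-smooth muscle actin and deposit collagen, as in scars. In bulk RNA, fewer cells of a type and less RNA per cell cannot be told apart. The count table names genes by Ensembl identifier, and the tables used here pair 0 of these identifiers with a symbol. Marker genes of MSCs, blood cells or myofibroblasts were therefore not checked, and the genes are described by how they moved.

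The question was which transcripts change when MSCs stay on the stiff surface for longer. The libraries held 19526226, 18266767 and 19258931 counts in 1w100 and 24139128, 17851670 and 18876077 counts in 3w100, and 14034 of the 30560 genes in the table passed the filter on low counts. The 3 libraries of 1w100 were 53.9 to 75.5 apart and those of 3w100 were 54.2 to 71.3 apart, as the Euclidean distance over the log2 counts per 1000000 (CPM) of these genes. The 9 distances between a 1w100 and a 3w100 library were 92.4 to 122, so each exceeded every distance within a group.

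At the threshold used, somewhat fewer genes rose than fell between 1 and 3 weeks on the stiff surface. The falls were far larger in fold than the rises. edgeR's quasi-likelihood test with Benjamini-Hochberg adjustment called 1180 of 14034 genes (8.41%) at an adjusted p below 0.05. Of these, 540 rose (3.85% of the genes tested) and 640 fell (4.56%), while the median change of all genes was 0.00 on the log2 scale. Without adjustment, 3179 genes had a p below 0.05. The 3 libraries of one group lay wholly above those of the other for 538 of the genes that rose and 635 of those that fell, against 30.8% of all genes tested. The genes were called on these same libraries, so this separation is built into the choice and is no test. The balance of the directions depended on the setting. An adjusted p below 0.01 left 194 higher and 334 lower, and edgeR on only the groups compared gave 410 and 637. The number of calls depended on single libraries. Without replicate 1 of 1w100 there were 535 calls (168 higher and 367 lower), without replicate 2 of 3w100 there were 618 (262 and 356), and without replicate 1 of 3w100 there were 343 genes higher. With the replicate number as a block there were 1872 calls, 940 higher and 932 lower, which held all 540 genes that rose and 638 of the 640 that fell.

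**Figure D1:**
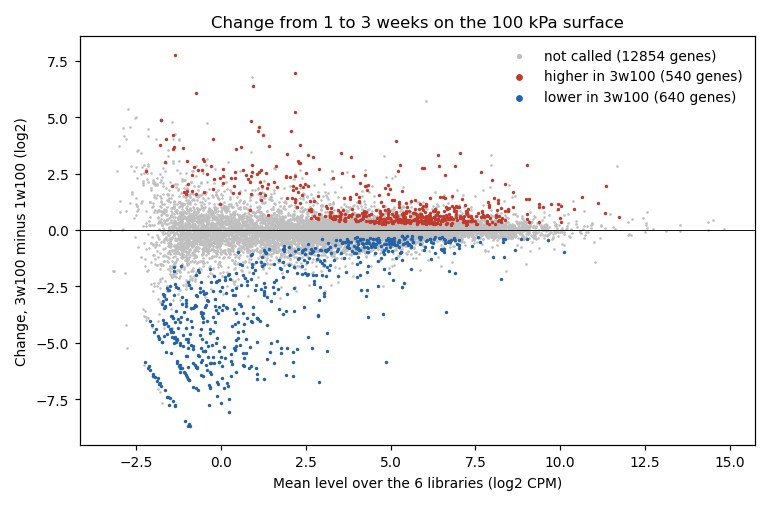
Change from 1w100 to 3w100 on the log2 scale (vertical axis) against the mean level over the 6 libraries in log2 CPM (horizontal axis), with 1 point for each of the 14034 genes tested. The 540 genes called higher (red) lie mostly close to 0 and at high levels, whereas the 640 called lower (blue) spread at low levels to falls with a size of 8.71.

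Most genes that rose did so moderately, and 63 of the 540 started from a mean below 1 CPM in 1w100. Their median change was 0.71 on the log2 scale, with an interquartile range of 0.45 to 1.47 and a median SE of 0.16. Their median level went from 32.2 CPM in 1w100 to 52.3 CPM in 3w100. The genes that fell had a median change of -2.54 with a median SE of 0.52, and their median level went from 7.42 CPM to 0.875 CPM. In 3w100, 330 of these 640 genes had a mean below 1 CPM. The filter used all 8 groups, so a gene near 0 in 3w100 passed it only through other groups, 1w100 among them. The same holds for genes near 0 in 1w100 that rose. The counts of such genes are therefore a description.

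Size separated the directions more than number did. Among changes of less than 2-fold, 347 genes rose and 195 fell. Between 2- and 4-fold the directions were nearly even, with 100 genes higher and 86 lower, and between 4- and 8-fold 57 rose and 81 fell. Between 8- and 16-fold 21 rose and 69 fell. At 16-fold or more, 15 genes rose and 209 fell, so that 93.3% of the strongest changes were losses.

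**Figure D2:**
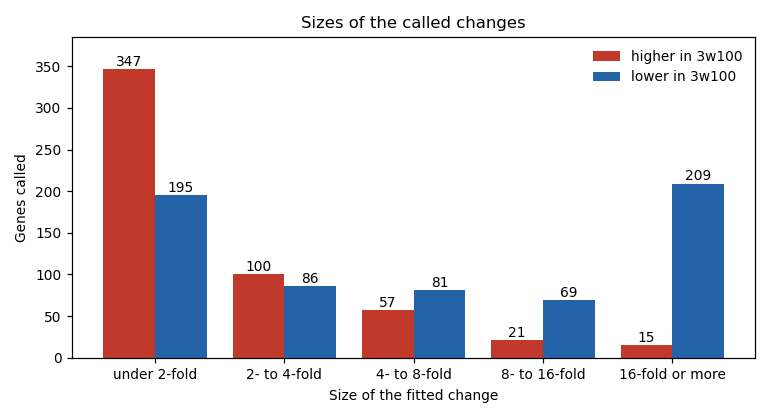
Number of genes called in each direction (vertical axis) by the size of the fitted fold change from 1w100 to 3w100 (horizontal axis). Genes that rose (red) are most numerous under 2-fold, with 347, and genes that fell (blue) are most numerous at 16-fold or more, with 209.

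The level of a gene went with the direction of its change. The genes tested were divided into 5 bins by their mean level over the 6 libraries. In the lowest bin 375 of 2807 genes (13.4%) were called, 62 higher and 313 lower. The highest bin had 251 of 2807 (8.94%) called, 197 higher and 54 lower. The middle bin, with 5.84% called, was even, with 81 higher and 83 lower. The median SE of the log2 change was 0.58 in the lowest bin and 0.12 in the highest, so a change had to be larger to be called in a low gene. Even so, the lowest bin had the largest share called. The bins rest on the same libraries as the change, and a level near 0 in one group lowers a gene's mean. The link of level with direction and with the share called is therefore partly built in.

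The 209 genes that fell at least 16-fold made up a small but sharply lost part of the transcriptome. Their summed level was 1910, 984 and 1764 CPM in the libraries of 1w100 and 22.5, 24 and 51.4 CPM in those of 3w100. These genes were chosen for their fall on the same libraries, so the gap between the groups is built into the choice. The lowest library of 1w100 was replicate 2. The median gene of this set fell from 2.82 CPM to 0.0493 CPM, a change of -5.53 on the log2 scale. Replicate 2 was the lowest of the 1w100 libraries for 190 of the 209 genes (90.9%), against 32.4% of all genes tested. Across all 640 genes that fell, it was the lowest for 438 (68.4%). Replicate 2 was also the library of 1w100 nearest to 3w100, at a mean distance of 100.1 against 118 for replicate 1 and 110 for replicate 3. Without this library 934 genes were called, 561 of them lower. When libraries of the same number were set against each other, the median change of the 640 genes was -2.33, -1.93 and -2.0 on the log2 scale for replicates 1, 2 and 3, a description only, since these genes were chosen on the same libraries.

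**Figure D3:**
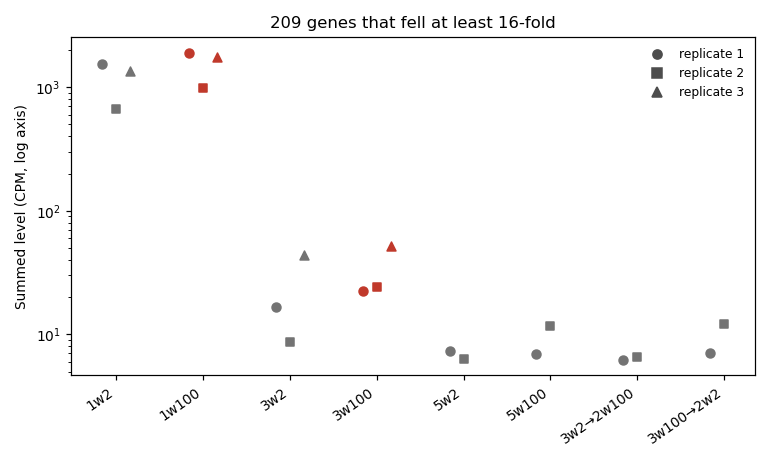
Summed level in CPM (vertical log axis) of the 209 genes that fell at least 16-fold from 1w100 to 3w100, in each of the 20 libraries by group (horizontal axis), with the 6 libraries compared in red and a marker shape for each replicate number. The week 1 libraries lie at 666 CPM or higher and all later ones at 51.4 CPM or lower, on both surfaces.

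ENSRNOG00000028015 was the gene of largest fall among those with at least 10 CPM in 1w100. It had 13.5, 6.58 and 12.6 CPM in the 1w100 libraries and 0, 0 and 2 counts in the 3w100 libraries. Groups that did not overlap were a condition for naming a gene, so their separation is no test. The gene's 673 counts in 1w100 against 2 in 3w100 gave a ratio of 330 in depth-adjusted level. The 95% exact interval of this ratio, 91.0 to 2731, covers counting error only. The fitted change was -8.09 (SE 0.80, adjusted p = 0.000363 by edgeR), a value that depends on the prior count. Each of the 8 libraries taken at 5 weeks had 0 counts of this gene, which allows up to 3.

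ENSRNOG00000012779 came next, with 16.5, 5.29 and 8.71 CPM in 1w100 and 0, 1 and 2 counts in 3w100. Replicate 2 was again the lowest of its 1w100 libraries. The 638 counts against 3 gave a ratio of 209 with an interval of 71.0 to 1014, and the fitted change was -7.48 (SE 0.89, adjusted p = 0.000742 by edgeR). It too had 0 counts in every library of 5 weeks.

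A group of 50 genes went from plainly present to near 0. Each had at least 30 counts in every 1w100 library and at most 3 counts in every 3w100 library, a rule that chose them on this contrast. Their median counts were 105, 46 and 77.5 in the 1w100 libraries and 1, 1 and 2 in the 3w100 libraries. Replicate 2 was the lowest 1w100 library for 48 of the 50. In the 5w100 libraries, which the rule did not use, the median counts were 0 and 0, and 48 of the 50 genes had at most 3 counts in both. On the soft surface, 23 of the 50 had at least 30 counts in every 1w2 library, and 37 had at most 3 counts in every 3w2 library.

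The genes that rose were chosen on these libraries, so their sums describe how much RNA was involved and are no test. Their summed level was 38699, 46793 and 46639 CPM in 1w100 and 83008, 86181 and 78072 CPM in 3w100. Replicate 1 was the lowest library of 1w100. The 640 genes that fell summed to 23563, 19444 and 20735 CPM in 1w100 and to 11130, 10828 and 11422 CPM in 3w100. With libraries of the same number set against each other, the median change of the 540 genes was 0.87, 0.68 and 0.57 on the log2 scale. Replicate 1, which gave the largest of these, was the lowest of the 1w100 libraries for 327 of the 540 genes that rose (60.6%), against 29.4% of all genes tested.

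ENSRNOG00000058560 had the largest rise among genes with at least 10 CPM in 3w100. It was at 0, 0.622 and 0.701 CPM in 1w100 and at 42.9, 78.1 and 44.9 CPM in 3w100. Its means were 0.441 ± 0.384 CPM in 1w100 and 55.3 ± 19.8 CPM in 3w100 (SD, n = 3 each). The naming rule required groups that did not overlap, so their separation is no test. The change was 6.99 on the log2 scale (SE 0.66, adjusted p = 0.000115 by edgeR). It stayed at 55.5 and 95.6 CPM in 5w100, and was at 59.3 and 121 CPM in 3w100→2w2, cells moved to 2 kPa for weeks 4 and 5. In 5w2, kept on 2 kPa throughout, it was at 29.0 and 22.4 CPM, also above week 1.

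ENSRNOG00000015055 rose from 0.228, 0.104 and 0.200 CPM to 16.2, 24.6 and 5.62 CPM. Its 3w100 libraries varied widely, with a mean of 15.5 ± 9.51 CPM (SD, n = 3). All lay above those of 1w100, which the naming rule required. The change was 6.38 (SE 1.24, adjusted p = 0.00496 by edgeR). At 5 weeks it was at 51.1 and 81.3 CPM in 5w100 and at 31.6 and 29.0 CPM in 3w100→2w2, while 5w2 held 4.96 and 0.335 CPM.

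Most of the change over time on the stiff surface was also seen on the soft one. The soft comparison (3w2 against 1w2) shares no library with the stiff one, although same-numbered libraries of both surfaces may come from the same rat. It called 523 genes higher (3.73% of those tested) and 604 lower (4.3%). Of the 540 genes that rose on 100 kPa, 305 also rose on 2 kPa, which is 56.5% of the stiff list and 58.3% of the soft list. Of the 640 that fell on 100 kPa, 443 also fell on 2 kPa, which is 69.2% of the stiff list and 73.3% of the soft list. No gene was called in opposite directions. The sign was shared by 538 of the 540 and 636 of the 640 genes, against 77.6% of all genes tested, with median soft changes of 0.59 and -2.22 on the log2 scale beside 0.71 and -2.54 on the stiff surface.

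The strongest losses were shared by both surfaces. All 209 genes that fell at least 16-fold on 100 kPa had a lower fitted level on 2 kPa as well, and 192 of them (91.9%) were called there, with a median soft change of -5.50. Their summed level was 1552, 666 and 1346 CPM in 1w2 and 16.7, 8.71 and 43.5 CPM in 3w2. Replicate 2 was thus the lowest week 1 library on both surfaces, and replicate 3 the highest week 3 library on both. Of the 15 genes that rose at least 16-fold, 11 (73.3%) were called higher on 2 kPa, where the median change was 3.75 against 4.82 on 100 kPa. The median level of these 15 genes in 1w100 was 0.177 CPM. The 4 identified genes moved the same way, by 5.44 (ENSRNOG00000058560), 5.05 (ENSRNOG00000015055), -7.43 (ENSRNOG00000028015) and -8.32 (ENSRNOG00000012779) on the log2 scale.

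The soft change was smaller where only the stiff change was called. The 235 genes called higher only on 100 kPa had median changes of 0.58 on the stiff and 0.37 on the soft surface, and the 197 called lower only on 100 kPa had -0.84 and -0.46. These lists were picked for passing on one surface and not the other, so such a gap is built into the choice. The test of the difference itself, the interaction of time and surface in edgeR, called 0 genes (0%). It gave 222 genes with an unadjusted p below 0.05, and DESeq2 called 0 genes with 219 below that value. Both counts are under a share of 0.05 of the 14034 genes tested, the share that evenly spread p values would give. The test was thus conservative here, and 0 calls do not show that the 2 changes were equal. Blocking on the replicate number also gave 0 calls, and 471 genes had an unadjusted p below 0.05, with a lowest adjusted p of 0.546 in edgeR. Leaving out single libraries gave 0 calls each time and 147 (without replicate 2 of 3w2) to 542 (without replicate 3 of 3w2) such genes, with 384 without replicate 1 of 3w100, 372 without replicate 3 of 1w100 and 336 without replicate 2 of 1w2. The median SE of the difference was 0.26 on the log2 scale, and for ENSRNOG00000058560 the difference was 1.55 with an SE of 1.05, so a difference of this size in a gene that varies this much was not detectable with these libraries.

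**Figure D4:**
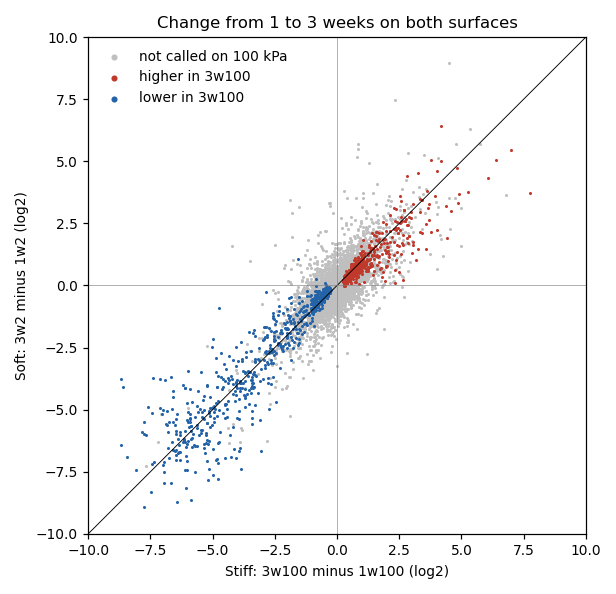
Change from 1 to 3 weeks on 2 kPa (vertical axis) against that on 100 kPa (horizontal axis), both on the log2 scale, for the 14034 genes tested, with equal changes on the diagonal. Genes called on 100 kPa (red higher, blue lower) lie along the diagonal. Across genes, which are not independent replicates, Pearson's r was 0.878 and Spearman's rho was 0.720.

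The levels reached at 3 weeks on 100 kPa were held or extended at 5 weeks. The median level of the 540 genes that rose was 4.84, 5.07 and 5.04 log2 CPM in 1w100, 5.74, 5.72 and 5.65 in 3w100, and 5.80 and 5.94 in 5w100. The median of the 640 genes that fell was 3.14, 2.43 and 3.01 log2 CPM in 1w100, -0.15, -0.33 and 0.08 in 3w100, and -0.83 and -0.39 in 5w100. Both 5w100 libraries thus lay beyond all 3w100 libraries in both sets, by less than the step from week 1 to week 3. The genes were chosen with 3w100, so the step to week 5 carries no test here. After 2 further weeks on 2 kPa, 3w100→2w2 was at 5.73 and 5.86 log2 CPM for the genes that rose and at -0.76 and -0.35 for those that fell. These values lay within or beyond the range of 3w100, on the side away from week 1. Cells kept on 2 kPa throughout (5w2) had 5.63 and 5.59 log2 CPM for the genes that rose and -0.90 and -1.04 for those that fell. For the genes that fell, 5w2 thus lay below every 5w100 and 3w100→2w2 library without time on 100 kPa. For the genes that rose, both 5w2 libraries lay below every 3w100, 5w100 and 3w100→2w2 library, on the side of week 1. Whether levels in 3w100→2w2 were kept from the stiff surface was not tested. The 209 genes of strongest fall summed to 6.93 and 11.7 CPM in 5w100 and to 7.04 and 12.2 CPM in 3w100→2w2, below each 3w100 library. In 5w2 they summed to 7.34 and 6.37 CPM. Over all genes tested, 5w100 libraries were 56.8 to 89.8 from 3w100 and 124 to 144 from 1w100.

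**Figure D5:**
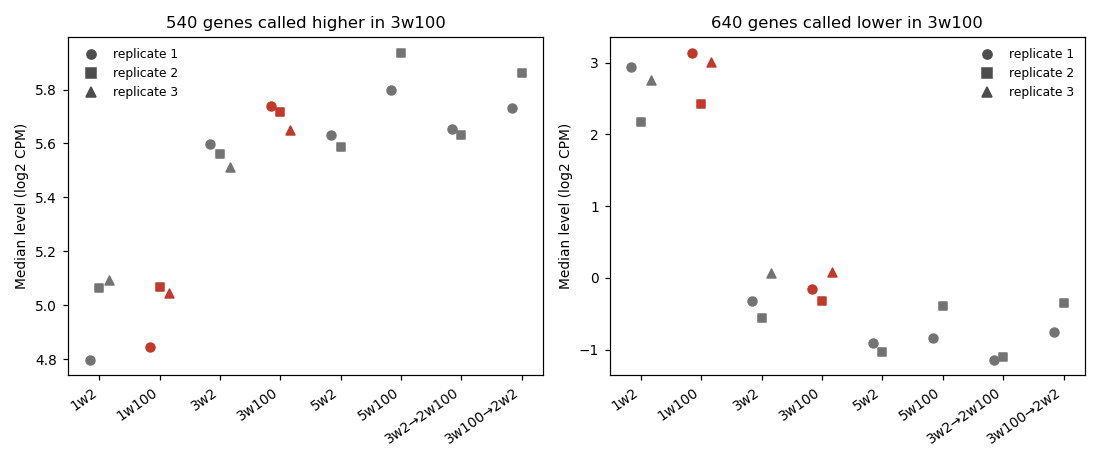
Median level in log2 CPM (vertical axes) of the 540 genes that rose (left) and the 640 that fell (right) from 1w100 to 3w100, in each of the 20 libraries by group (horizontal axes), with the 6 libraries compared in red and a marker shape for each replicate number. Every library after week 1 lies above all week 1 libraries on the left and below them on the right, on both surfaces.

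Counts in 3w100 were concentrated on somewhat fewer genes than in 1w100, without a test that could pass the threshold. The most abundant genes that together held 50% of all counts numbered 530, 446 and 421 in 1w100 and 393, 390 and 401 in 3w100. The groups did not overlap, with means of 466 ± 57.1 and 395 ± 5.69 genes (SD, n = 3 each). A two-sided exact permutation test gave p = 0.1, the smallest that 3 against 3 libraries allow. The difference of -71 genes became -38.8 without replicate 1 of 1w100. The number of genes with any count was 16798 ± 166 in 1w100 and 16461 ± 205 in 3w100 (SD, n = 3 each, exact permutation p = 0.2). These numbers depend on depth. With every library thinned to 16127907 counts, an alternative added after the values were seen, they were 16736, 16661 and 16417 in 1w100 and 16154, 16115 and 16304 in 3w100. At equal depth the groups did not overlap, and the exact permutation p was 0.1, again the smallest possible. The 10 most abundant genes held 15.1% ± 1.66 and 16% ± 0.294 of counts (SD, n = 3 each, exact permutation p = 0.5), a difference within the spread of 1w100. The median SD of single genes between replicates was 0.19 in 1w100 and 0.17 in 3w100 on the log2 CPM scale.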

How the data were processed

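Conditions and replicate numbers came from the sample labels and group names from the paper. The comparison, the lists and the settings were chosen with earlier results of these data known. What the authors deposited are raw counts for each Ensembl gene, not normalized, from poly(A) RNA libraries made with a stranded kit. Their reads were trimmed (TrimGalore!), inspected (FastQC), aligned to the rat build mRatBN7.2 (HISAT2) and assigned to genes (FeatureCounts). No source used here gives the versions, the strand setting or the treatment of reads matching several genes. Overlapping genes and those with near-identical copies therefore have uncertain counts. Depth was 17851670 to 24139128 counts in the 6 libraries compared and 16127907 to 24139128 over all 20, and 0 rows named no gene.

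The test was edgeR 4.0.16 in R 4.3.3 (TMM factors, filterByExpr with a minimum count of 10 and total of 15, quasi-likelihood fit of 8 groups over 20 libraries, tested on simulated data). A gene was called when its p, adjusted by Benjamini-Hochberg over all genes tested, was below 0.05. CPM use TMM factors, and log2 CPM add a prior count of 2. Each SE of an edgeR change is the size of the log2 change divided by the square root of the test's F. Such an SE is approximate and is unreliable for genes with few counts. The paper describes replicates as biological, with cells of different rats unless noted otherwise, but neither it nor the labels say that a replicate number marks one rat. Replicates of a group differed beyond sampling noise. Intervals cover counting error only.

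Same-numbered 1w100 and 3w100 libraries had correlated deviations from their group means (r = 0.128, 0.349 and 0.114, against -0.245 to 0.0979 for other pairs). Every same-numbered r is above the limit of 0.1, but the largest r of the other pairs, 0.0979, is close to it. Deviations from a group mean sum to 0, so these r values are not independent of each other. Any pairing thus comes from the data, not the design, and is not settled by these values. The main fit does not pair the libraries, and the replicate number as a block is an alternative.

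The named genes are, in each direction, the 2 that changed most among those called with groups that did not overlap and a mean of at least 10 CPM in the higher group. Gene lists, cell type markers, promoter letters and the parts of the naming rule that need symbols could not be run, since 0 identifiers matched one. Alternatives were DESeq2 1.42.0, RLE factors, other filters and thresholds, only the groups compared, the replicate block, thinning to 16127907 counts and leaving out each library.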

Additional observations from a re-analysis of the deposited data

How the results depend on the processing

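The 4 identified genes kept their direction and stayed called under all 16 alternatives, and the interaction of time and surface stayed at 0 calls. Totals within 1.5 times of 1180 came from DESeq2 on all libraries (1577), edgeR on only the groups compared (1047), RLE factors (1156), no filter (1014), a filter on a mean of 10 counts (1017) and thinned counts (1120). The replicate number as a block gave 1872 calls, 940 of them higher. A paired fit on only the groups compared, added after the values were seen, gave 1093. DESeq2 on only the groups compared gave 1798 calls, 850 of them higher, and 1425 with the replicate block (690 higher and 735 lower). On only the groups compared, the block thus raised the calls slightly in edgeR, from 1047 to 1093, and lowered them in DESeq2. A fold of at least 2 left 638 calls, 193 of them higher, and an adjusted p below 0.01 left 528, 194 higher and 334 lower. Leaving out each library in turn gave 535 to 1008 calls, 168 to 468 higher and 356 to 561 lower. The difference in the number of genes holding 50% of counts was -71 and stayed between -93.3 and -38.8 without each library. Alternatives for gene lists could not be run without symbols.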
